A study of Rattus norvegicus with 28 samples.

Results

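The comparison set NRK-49F fibroblasts given TGF-β with methionine restriction (MetR) against the same cells given TGF-β alone. NRK-49F is an established rat kidney fibroblast line. Of the 30178 genes in the expression table, 11631 had at least 1 FPKM (reads scaled to gene length and library size) in at least 2 of the 4 libraries compared, and all 11631 are described here. The libraries were made from polyadenylated RNA. Each group holds 2 libraries: TGF-β alone, with TGF-β1 at 5 ng/μL for 48 h, and TGF-β with MetR, with the same TGF-β1 and time. Untreated control libraries, also 2, and 2 libraries with TGF-β and an siRNA against Hoxc8 entered the fit, where they add to the estimate of the spread behind every p-value. Levels in the controls are given for reference. Before treatment, all cells were kept for 24 h in medium with 0.2% serum. The MetR medium, a defined recipe with dialyzed serum, held 30 μM methionine, against 200 μM in its control version. The labels do not say which medium the TGF-β libraries had, so the methionine level and the rest of the medium cannot be told apart. Nor do they state whether paired libraries of a group are independent cultures, and the p-values reflect only the spread between these libraries, which may be technical. A fall in a gene's FPKM in these bulk samples cannot separate fewer expressing cells from less RNA per cell.

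Methionine is an essential amino acid that cells turn into S-adenosylmethionine (SAM), the donor of methyl groups for DNA, RNA, histones and other proteins. After the methyl group is given away, the remaining homocysteine can be remethylated to methionine or passed on to cysteine. TGF-β drives fibroblasts toward myofibroblasts, contractile cells that lay down matrix. Cells short of an amino acid translate the transcription factor ATF4, which is known to raise genes of amino acid uptake, tRNA charging and stress.

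By limma's moderated test on log2(FPKM + 1), with Benjamini-Hochberg adjustment over 12315 genes, 4243 of the 11631 genes (36.5%) were higher with MetR at an adjusted p under 0.05 and 2283 (19.6%) were lower. These shares are the background for every count below. At least 2-fold rises passed the test in 1311 genes (11.3%) and falls of that size in 821 (7.06%). The median change of all genes was 0.20 on the log2 scale, and the middle 50% lay between -0.27 and 0.64. The excess of rises depended on the scaling between libraries. After median ratio rescaling, which moves the median to 0.00, 27% rose and 27.4% fell, and after quantile normalization 27.9% rose and 25.7% fell. List medians are therefore read against 0.20. Of 5 equal bins by gene length, the shortest had a median change of 0.01 and the longest 0.30. The 2 MetR libraries differed more from each other (replicate SD 0.301 on the log2 scale) than the 2 TGF-β libraries did (0.217). Within those pairs, 319 and 135 genes differed at least 2-fold. The control pair (0.161) and the pair with the siRNA against Hoxc8 (0.168) were tighter than both. Because all groups share 1 estimate of the spread, the SEs and p-values of this comparison can be too small. The 8 RNA libraries held 15131826 to 20164766 recovered reads.

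**Figure D1:**
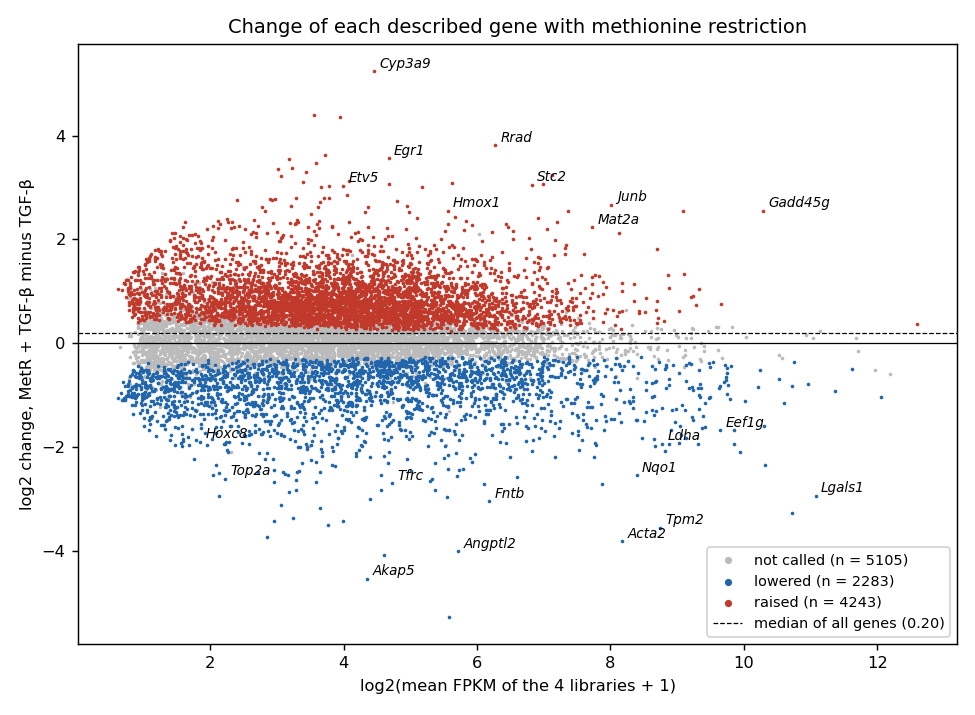
Log2 change with MetR (vertical axis) against log2(mean FPKM of the 4 libraries + 1) (horizontal axis) for the 11631 genes; red points were raised, blue points lowered and grey points not called, and the dashed line is the median of 0.20. The 4243 raised genes outnumber the 2283 lowered ones, and both span most of the range of levels.

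The methionine cycle changed at its SAM-making and homocysteine-remethylating steps. Mat2a, the catalytic subunit of the SAM synthetase of most tissues, measured 69.8 and 74.6 FPKM with TGF-β and 293 and 402 FPKM with MetR. Both MetR libraries lay far above all others, with 66.6 and 63.2 FPKM in the controls, and the change was 2.23 ± 0.15 (log2, SE; adjusted p = 7.03e-05). Its regulatory partner Mat2b rose by 0.62 ± 0.14. Mtr, the methionine synthase that remethylates homocysteine, measured 7.39 and 6.06 FPKM with TGF-β and 14.2 and 13.5 with MetR, a rise of 0.95 ± 0.12. Mtrr, which keeps that enzyme in its active form, rose by 0.66 ± 0.12. Ahcyl1, a relative of S-adenosylhomocysteine hydrolase, went the other way, from 74.5 and 73.5 FPKM to 31.8 and 31.0 FPKM (-1.21 ± 0.09). The hydrolase itself, Ahcy, did not pass the test (0.21, adjusted p = 0.32), but did without the first MetR library (0.50). Mat1a, the liver form of the synthetase, was near the limit of 1 FPKM and fell. Of the 17 described genes of the cycle and of transsulfuration, 7 rose and 3 fell, shares near the background, with a median of 0.34. After median ratio rescaling 5 rose and 4 fell, so the change lay in single genes rather than the whole list.

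Enzymes that load one-carbon units onto folate, the source of the methyl group in remethylation, rose more often than the background. In the list of serine synthesis and folate enzymes, 13 of 21 rose, 3 fell and the median was 0.50. Shmt2, the mitochondrial enzyme that splits serine into glycine and a one-carbon unit, measured 142 and 145 FPKM with TGF-β and 293 and 364 FPKM with MetR (1.18 ± 0.12). Mthfd2l, a mitochondrial folate dehydrogenase, rose from 1.59 and 1.72 FPKM to 6.21 and 7.47 FPKM. The last enzyme of serine synthesis, Psph, rose by 1.12 ± 0.19, whereas the first, Phgdh, fell by 0.37 on the log2 scale. The cytosolic Shmt1 also fell (-0.50 ± 0.11). Among 19 genes of polyamine synthesis and methionine salvage, 7 rose and 4 fell, shares near the background. Sat1, which acetylates spermidine and spermine, rose by 1.22 ± 0.17 from 94.7 and 111 FPKM to 201 and 288 FPKM. Mtap, the first enzyme of methionine salvage, fell by 0.56 on the log2 scale.

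Genes of the ATF4 pathway rose, with exceptions. The list of ATF4 and its stress effectors had 19 of 29 raised, 2 lowered and a median of 0.64. Atf4 itself measured 281 and 320 FPKM with TGF-β and 542 and 738 FPKM with MetR (1.07 ± 0.15). The strongest member was Stc2, a secreted glycoprotein of stressed cells, which went from 25.4 and 20.4 FPKM to 158 and 245 FPKM, a rise of 3.05 ± 0.20 (adjusted p = 7.03e-05). Trib3, a pseudokinase that feeds back on ATF4, measured 45.8 and 47.6 FPKM with TGF-β and 191 and 300 FPKM with MetR. Chac1, which degrades glutathione, measured 56.0 and 58.7 FPKM with TGF-β and 224 and 234 FPKM with MetR. In both genes every MetR library exceeded every TGF-β and control library. Ppp1r15a, a subunit of the phosphatase that restores eIF2α, rose by 2.41 ± 0.27, and Ddit3, which encodes the factor CHOP, by 1.57 ± 0.14. Asns, asparagine synthetase and a widely used ATF4 target, measured 111 and 113 FPKM against 125 and 153 FPKM and did not pass the test (0.30, adjusted p = 0.0501). It passed without the first MetR library (0.44) and, by a small margin, under several other settings. Pck2, the mitochondrial phosphoenolpyruvate carboxykinase, fell from 54.2 and 65.2 FPKM to 24.6 and 16.9 FPKM (-1.50 ± 0.18).

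Amino acid carriers changed in some members (7 of 19 rose and 2 fell), and the sign of the list's median depended on scaling: it was 0.14 over 19 genes as deposited and -0.06 after median ratio rescaling. Slc7a5, the light chain of the main carrier of methionine and other large neutral amino acids, measured 49.0 and 43.4 FPKM with TGF-β and 228 and 332 FPKM with MetR (2.55 ± 0.17). Its heavy chain Slc3a2 rose from 200 and 204 FPKM to 378 and 519 FPKM. Slc7a1, the carrier of arginine and lysine, rose by 1.62 ± 0.15, and Slc7a11, the cystine carrier, by 1.14 ± 0.27. The taurine carrier Slc6a6 fell (-1.22 ± 0.34). Without the first TGF-β library Slc6a6 did not pass the test (-0.93), nor did Slc7a11 without the second (1.0). Of 23 cytosolic tRNA synthetase genes, which charge tRNAs with amino acids, 12 rose and 2 fell, with a median of 0.44. Eprs rose by 1.45 ± 0.11, Aars by 1.30 ± 0.08 and the methionyl enzyme Mars1 by 0.78 ± 0.15. Qars1, the glutaminyl enzyme, fell from 66.7 and 63.8 FPKM to 28 and 26.3 FPKM.

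Promoters from RefSeq were searched for the ATF4 response element, TGATGNAA on either strand, in the 250 bases before each start site (build GRCr8). The element was in 145 of the 8403 described genes with a promoter in the table (1.73%) and in 3.27% of all 27457 promoters. It was in 24 of 888 genes raised at least 2-fold (2.7%) and in 9 of 536 lowered at least 2-fold (1.68%). Among the lists searched, it was in 4 of 16 promoters of tRNA synthetases (25%) and 3 of 17 of amino acid carriers (17.6%). It was in 1 of 26 of endoplasmic reticulum chaperones (3.85%), 1 of 47 of ribosome biogenesis (2.13%) and 0 of 30 of immediate early genes. In the ATF4 list 5 of 28 genes held it, namely Chac1, Trib3, Jdp2, Nupr1 and Pck2; Nupr1 did not pass the test, but did without the second TGF-β library (0.50) and with the length trend removed (0.45). The promoters below are shown because their genes carry the element and passed the test, 3 of them from the ATF4 list (Chac1, Trib3 and Pck2, of which Pck2 fell), 1 a carrier (Slc7a1) and 1 a stress gene (Gadd45g), with the element in capitals.
Chac1, chr3:126795881-126796130, plus strand: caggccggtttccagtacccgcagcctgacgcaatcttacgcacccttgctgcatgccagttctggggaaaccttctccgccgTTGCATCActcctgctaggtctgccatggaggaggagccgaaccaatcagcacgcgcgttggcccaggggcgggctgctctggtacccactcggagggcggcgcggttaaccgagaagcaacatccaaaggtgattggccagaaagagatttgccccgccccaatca
Trib3, chr3:161275534-161275783, minus strand: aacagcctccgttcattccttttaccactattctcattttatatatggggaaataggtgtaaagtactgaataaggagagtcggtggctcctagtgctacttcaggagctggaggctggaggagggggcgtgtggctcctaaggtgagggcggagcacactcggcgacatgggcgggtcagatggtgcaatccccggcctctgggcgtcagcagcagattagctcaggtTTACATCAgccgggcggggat
Slc7a1, chr12:11664238-11664487, plus strand: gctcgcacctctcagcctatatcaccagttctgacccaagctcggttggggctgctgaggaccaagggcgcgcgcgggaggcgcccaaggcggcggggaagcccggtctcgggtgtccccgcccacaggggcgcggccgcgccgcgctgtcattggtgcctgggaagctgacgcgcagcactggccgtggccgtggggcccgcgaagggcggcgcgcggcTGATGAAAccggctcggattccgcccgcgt
Gadd45g, chr17:13530352-13530601, minus strand: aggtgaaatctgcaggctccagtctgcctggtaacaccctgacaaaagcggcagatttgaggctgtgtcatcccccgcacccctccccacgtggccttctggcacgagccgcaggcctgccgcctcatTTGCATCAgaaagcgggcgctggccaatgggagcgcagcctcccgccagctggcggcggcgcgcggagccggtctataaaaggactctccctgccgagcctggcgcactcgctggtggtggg
Pck2, chr15:32997603-32997852, plus strand: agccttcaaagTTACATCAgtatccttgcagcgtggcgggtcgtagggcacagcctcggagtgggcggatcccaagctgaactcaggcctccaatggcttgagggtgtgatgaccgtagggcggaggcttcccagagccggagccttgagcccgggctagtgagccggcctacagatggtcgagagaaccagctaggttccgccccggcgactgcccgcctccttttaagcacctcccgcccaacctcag
The element lay 167 to 160 bases before the start site in Chac1, 21 to 14 in Trib3, 30 to 23 in Slc7a1, 122 to 115 in Gadd45g and 239 to 232 in Pck2. The first 4 of these genes rose and Pck2 fell. These are matches of letters, not measured binding sites.

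Sensors of amino acids upstream of mTOR, the kinase that couples nutrients to growth, also changed. Of 36 genes of the mTOR complexes and their sensors, 17 rose and 4 fell, with a median of 0.34. Sesn2, a leucine sensor that holds mTORC1 down, measured 30.4 and 28.9 FPKM with TGF-β and 83.9 and 104 FPKM with MetR (1.62 ± 0.12). Deptor, an inhibitor bound to mTOR, rose by 1.40 ± 0.30 but stayed, at 12.7 and 5.61 FPKM, below the 62.0 and 65.8 FPKM of the controls, and without the second TGF-β library it did not pass the test (1.25). The arginine sensor Castor1 fell (-1.06 ± 0.18), and so did Nprl2, a subunit of the complex that relays amino acid shortage, by 1.0 on the log2 scale. Bmt2, also called Samtor, the SAM sensor of the pathway, was looked up after the lists: it fell from 34.1 and 32.1 FPKM to 15.7 and 15.9 FPKM (-1.02 ± 0.09).

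**Figure D2:**
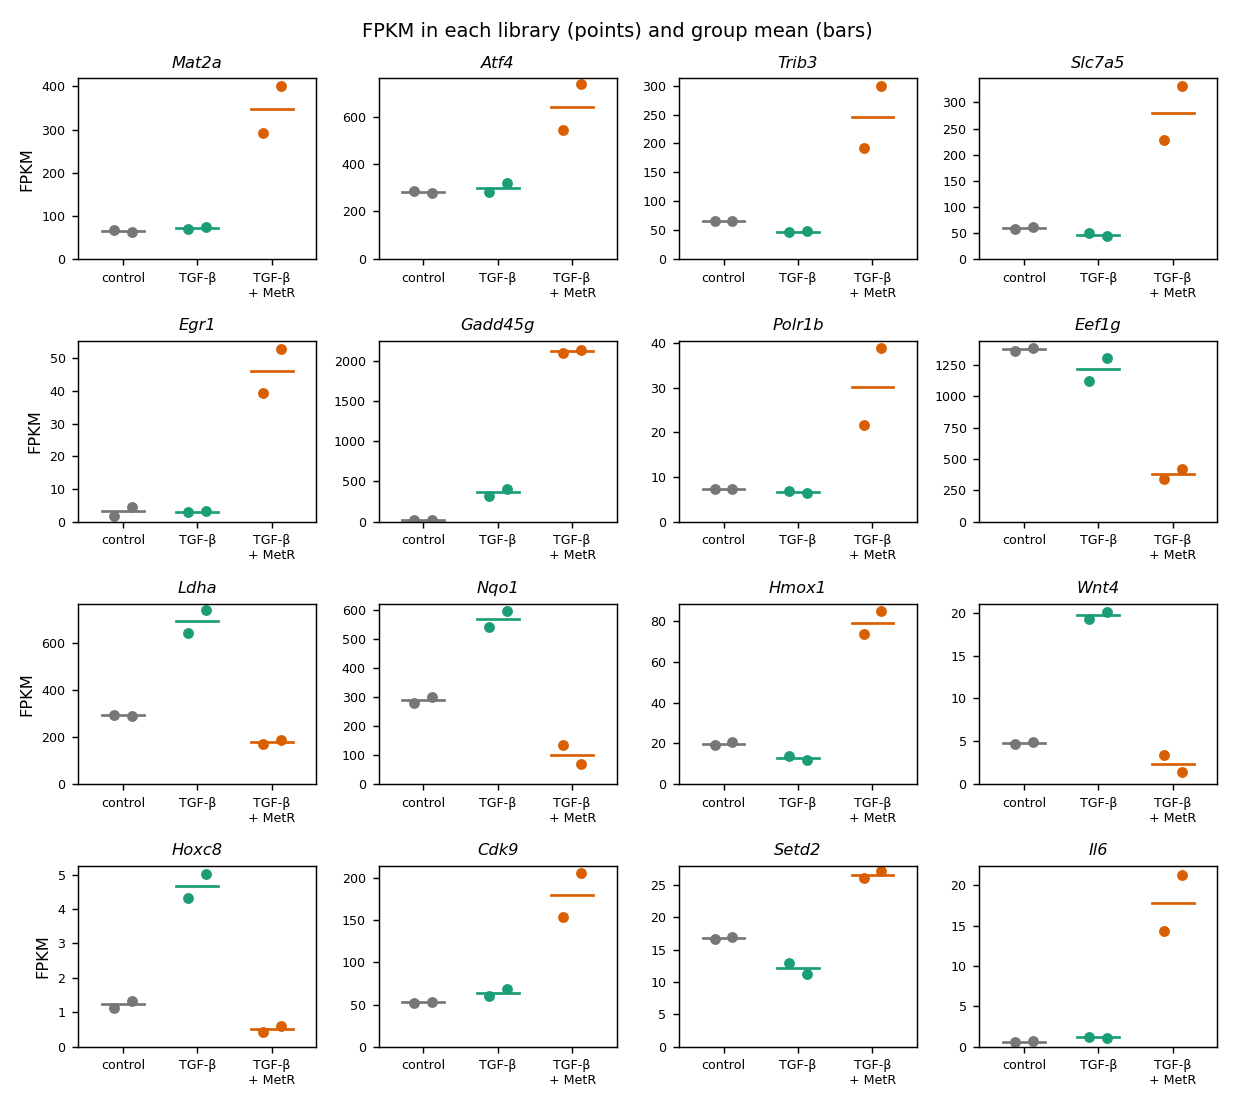
FPKM (vertical axis, from 0) of 16 genes in the 2 control, 2 TGF-β and 2 TGF-β with MetR libraries; points are libraries and bars group means. Mat2a, Trib3, Slc7a5, Egr1 and Il6 lay near the controls with TGF-β alone and high with MetR, whereas Ldha, Nqo1, Wnt4 and Hoxc8 were high with TGF-β and low with MetR.

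Genes that build ribosomes rose while genes for the ribosomal proteins fell. In the list of ribosome biogenesis and RNA polymerase I, 38 of 52 rose, 1 fell and the median was 0.80, and after median ratio rescaling 31 rose and 3 fell. Rrs1, a factor of the large subunit, measured 16.1 and 18.3 FPKM with TGF-β and 68.5 and 122 FPKM with MetR (2.35 ± 0.23). Polr1b, the second largest subunit of RNA polymerase I, measured 6.92 and 6.31 FPKM against 21.6 and 38.9 FPKM. Dkc1, the pseudouridine synthase of ribosomal RNA, rose by 1.64 ± 0.14, and Myc, which drives this programme, by 1.75 ± 0.22. Only 1 of the 52 was higher in the first MetR library than in the second, and the list's median was 0.57 with the first MetR library alone and 1.08 with the second. Of 72 cytosolic ribosomal protein genes, 0 rose and 63 fell, with a median of -1.25. Reads of these genes can be shared with pseudogenes, so single values are uncertain.

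Translation factors were divided. Of 48, 8 rose and 13 fell, with a median of 0.05, which turned to -0.16 under median ratio rescaling. The 3 largest falls were in elongation factor 1 subunits or the initiation factor eIF3. Eef1g fell from 1125 and 1304 FPKM to 338 and 422 FPKM (-1.68 ± 0.14), Eef1b2 by 1.40 on the log2 scale and Eif3f by 1.07. Eef1a1 fell from 3214 and 3705 FPKM to 1826 and 1799 FPKM. Among those that rose, Eif1a changed by 1.28 ± 0.23. Mitochondrial ribosomal proteins went up more often than down, with 33 of 74 raised and 3 lowered. After median ratio rescaling these counts were 20 and 10.

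Most immediate early genes, which growth signals switch on within minutes, rose. Of 42, 34 rose, 3 fell and the median was 1.26. Egr1 measured 2.80 and 3.10 FPKM with TGF-β and 39.5 and 52.7 FPKM with MetR, a rise of 3.56 ± 0.32 (adjusted p = 0.000181). Junb, an AP-1 subunit, measured 60.3 and 71.8 FPKM against 296 and 603 FPKM. The second MetR library was the higher for both. Fosl1, another AP-1 subunit, rose by 2.44 ± 0.41, whereas Fos rose by only 0.74 ± 0.17 and stayed at 4.62 and 3.63 FPKM. Etv4 and Etv5, ETS factors that follow FGF and ERK signalling, rose by 2.65 ± 0.18 and 3.03 ± 0.10. Feedback inhibitors of the same pathway rose with them, Dusp6 by 1.54 ± 0.28, Spry2 by 1.69 ± 0.31 and Dusp4 by 1.81 ± 0.25. The members that fell were Fosl2, Ier3 and Zfp36, a protein that destabilizes cytokine mRNAs (from 15.8 and 16.3 FPKM to 8.78 and 8.93 FPKM). Fosl2 did not pass the test without the first TGF-β library (-0.62), nor Ier3 without the second (-0.39).

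The CArG box, bound by serum response factor, is the textbook element of this class, and the Egr1 promoter is shown for it, with 2 matches in capitals.
Egr1, chr18:26736828-26737077, plus strand: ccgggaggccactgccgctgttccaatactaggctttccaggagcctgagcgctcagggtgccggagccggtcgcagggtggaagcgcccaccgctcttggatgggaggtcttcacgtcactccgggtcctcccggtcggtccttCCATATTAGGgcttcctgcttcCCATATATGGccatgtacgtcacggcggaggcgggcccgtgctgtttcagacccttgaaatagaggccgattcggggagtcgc
The matches lay 105 to 96 and 83 to 74 bases before the start site. The box was in 6 of 30 promoters of the immediate early list (20%), in 101 of 8403 described genes (1.2%) and in 1.5% of all promoters in the table. It was also in 10 of 888 genes raised at least 2-fold (1.13%) and in 9 of 536 lowered (1.68%). The contractile list, most of which fell, held the box in 2 of 15 promoters (13.3%). The E-box CACGTG was in 11 of 47 ribosome biogenesis promoters (23.4%), in 4 of 17 of amino acid carriers (23.5%), in 9 of 42 of lysosomes and autophagy (21.4%) and in 3 of 16 of tRNA synthetases (18.8%), against 8.41% of described genes, 9.35% of those raised and 3.92% of those lowered at least 2-fold, and 5.79% of all promoters. CCAAT on either strand was in 24 of 26 promoters of the endoplasmic reticulum chaperone list (92.3%), in 21 of 28 of cholesterol and fatty acid synthesis (75%) and in 33 of 47 of mitosis (70.2%), against 36.4% of described genes and 34.3% of all promoters. The tRNA synthetase list, most called members of which rose, held CCAAT in 10 of 16 promoters (62.5%). The ribosome biogenesis list, which also mostly rose, held it in 9 of 47 (19.1%). Among genes changed at least 2-fold CCAAT was in 33.8% of those raised and 38.4% of those lowered. The cAMP response element TGACGTCA was in 5 of 30 promoters of the immediate early list (16.7%), in 2.98% of described genes, 1.7% of all promoters, 3.38% of those raised and 2.43% of those lowered.

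In the list of D-type cyclins, CDK inhibitors and p53 targets, 19 of 36 rose and 3 fell, with a median of 0.52. Gadd45g, a stress gene that slows the cycle, measured 322 and 407 FPKM with TGF-β and 2100 and 2142 FPKM with MetR (2.55 ± 0.12), against 23.3 and 21.1 FPKM in the controls. Gadd45a rose from 144 and 160 FPKM to 637 and 1235 FPKM and Gadd45b by 2.13 ± 0.11. The p53 targets Mdm2 (1.46 ± 0.13), Phlda3 (1.31 ± 0.18) and Aen (1.28 ± 0.14) rose, but Cdkn1a, which encodes p21, measured 253 and 279 FPKM against 315 and 282 FPKM and did not pass the test. Ccnd1, cyclin D1, rose from 102 and 100.0 FPKM to 217 and 237 FPKM.

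Of 54 genes of mitosis and the spindle, 44 fell, 1 rose and the median was -0.98. Top2a, the topoisomerase of dividing cells, measured 6.18 and 7.83 FPKM with TGF-β and 0.346 and 0.256 FPKM with MetR (-2.61 ± 0.13). Ccnb1, cyclin B1, fell from 3.65 and 6.08 FPKM to 0.741 and 0.712 FPKM, and Birc5, survivin, by 2.12 on the log2 scale. In the controls Top2a stood at 32.9 and 31.8 FPKM. Replication genes did not move as 1 group. Of 43, 10 rose and 10 fell, with a median of 0.10 as deposited and -0.11 after median ratio rescaling. Rrm2, a subunit of ribonucleotide reductase, fell by 1.53 on the log2 scale. Mcm7, a subunit of the replicative helicase, rose from 18.9 and 22.2 FPKM to 61.8 and 95.2 FPKM.

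**Figure D3:**
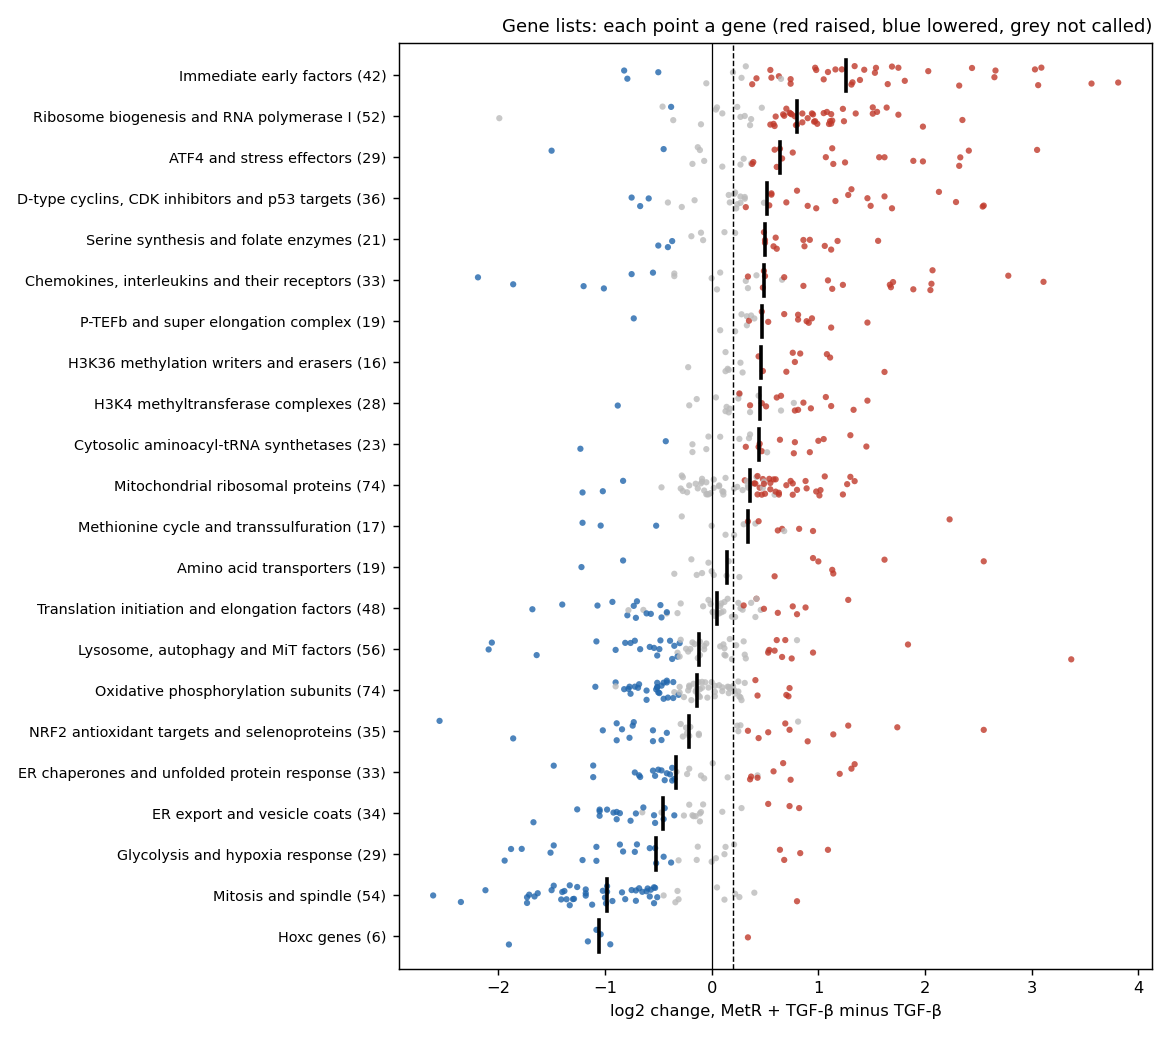
Log2 change with MetR (horizontal axis) of every described gene in 22 lists, with the number of genes in brackets; red points were raised, blue points lowered, grey points not called, black bars are list medians and the dashed line the median of all genes (0.20). Immediate early and ribosome biogenesis genes lay mostly to the right, and mitosis, glycolysis and vesicle coat genes mostly to the left.

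Genes of the secretory pathway fell more often than the background, with exceptions that included the stress sensors. Of 34 genes of export from the endoplasmic reticulum and of vesicle coats, 18 fell and 3 rose, with a median of -0.46. Copz2, a COPI coat subunit, fell from 66.0 and 76.7 FPKM to 25.9 and 18.3 FPKM (-1.67 ± 0.16), and the COPII subunits Sec31a and Sec24d fell by 1.05 each on the log2 scale. Sec24b, a paralog of the latter, rose by 0.82. In the list of endoplasmic reticulum chaperones and the unfolded protein response, 16 of 33 fell and 9 rose. P4hb, a disulfide isomerase and part of prolyl hydroxylase, measured 1366 and 1462 FPKM with TGF-β and 724 and 594 FPKM with MetR. Ero1a, which oxidizes that isomerase, fell by 1.48 on the log2 scale. Hspa5, the chaperone BiP, rose from 283 and 326 FPKM to 596 and 994 FPKM (1.34 ± 0.22), together with the sensors Ern1 (1.31 ± 0.24) and Atf6 (1.2 ± 0.14). In the cytosol, Dnajb1, a partner of HSP70, rose from 34.3 and 36 FPKM to 106 and 113 FPKM. Of 34 heat shock and chaperonin genes, 12 rose, a share near the background, and 4 fell. After median ratio rescaling 9 of these rose and 6 fell.

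Genes of glycolysis and the hypoxia response were lower with MetR. Of 29, 17 fell and 4 rose, with a median of -0.52. Ldha, which turns pyruvate into lactate, measured 645 and 739 FPKM with TGF-β and 170 and 188 FPKM with MetR (-1.94 ± 0.11), below the 294 and 292 FPKM of the controls. Gpi, the second enzyme of glycolysis, fell from 192 and 212 FPKM to 76.8 and 63.7 FPKM, and Pdk1, which keeps pyruvate out of mitochondria, by 1.88 on the log2 scale. Hif1a, the oxygen-regulated factor, did not pass the test (0.12), and 2 genes known as its targets, Vegfa (0.64 ± 0.11) and Adm (1.09 ± 0.15), rose. Among 74 nuclear-encoded subunits of oxidative phosphorylation, 26 fell and 5 rose, with a median of -0.14. The largest fall there was in Ndufb10, a complex I subunit, from 75.7 and 93.7 FPKM to 40.0 and 37.9 FPKM.

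Redox genes split. Nqo1, a quinone reductase and standard target of the antioxidant factor NRF2, measured 541 and 597 FPKM with TGF-β and 133 and 68.8 FPKM with MetR (-2.55 ± 0.26). Hmox1, heme oxygenase and another NRF2 target, went from 13.6 and 11.9 FPKM to 73.7 and 85.1 FPKM (2.55 ± 0.11). The whole list of NRF2 targets and selenoproteins, these genes included, had 10 of 35 raised and 13 lowered. The factor itself, Nfe2l2, rose by 0.73, as did the target Txnrd1 (0.90 ± 0.12), whereas Gsr and Prdx1 each fell by 0.89. Tfrc, the transferrin receptor that brings iron into cells, fell from 46.1 and 44.0 FPKM to 5.54 and 6.68 FPKM (-2.70 ± 0.11). Among 56 genes of lysosomes and autophagy, 10 rose and 19 fell. The factors of the MiT family, which control lysosomal genes, rose in 3 cases: Tfec, from 0.608 and 0.677 FPKM to 17.9 and 14.2 FPKM, Mitf by 1.84 ± 0.24 and Tfe3 by 0.95 ± 0.12. Wipi1, an autophagy protein, fell by 2.09 on the log2 scale.

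Histone methylases take their methyl group from SAM. Of 28 genes of the H3K4 methyltransferase complexes, 14 rose and 1 fell, with a median of 0.45, and of 16 writers and erasers of H3K36 methylation, 9 rose and 0 fell, with a median of 0.46. After median ratio rescaling the counts were 11 and 2, and 7 and 0. Setd2, the enzyme of H3K36 trimethylation, measured 12.9 and 11.2 FPKM with TGF-β and 26.0 and 27.1 FPKM with MetR (1.08 ± 0.11). The erasers Kdm4a (1.11 ± 0.11) and Riox1 (1.62 ± 0.16) rose as well. Among the H3K4 enzymes, Setd1b rose by 1.33 ± 0.19 and Kmt2d by 1.12 ± 0.19, while Setd7, a monomethylase, fell by 0.88 on the log2 scale, although not past the test without the first TGF-β library (-0.71). Of 27 genes of H3K9 and H3K27 methylation, 12 rose and 4 fell, shares near the background, and after median ratio rescaling 8 rose and 6 fell. Among 31 RNA, DNA and arginine methyltransferases, 17 rose and 2 fell, and 13 and 6 after that rescaling. Trmt6, part of the m1A methyltransferase of tRNA, rose from 11.3 and 12 FPKM to 34.0 and 62.9 FPKM. These are RNA levels, and the methylation of histones was not analysed here.

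P-TEFb frees RNA polymerase II from its pause near the start of genes. It and its partners in the super elongation complex rose in 11 of 19 genes and fell in 1, with a median of 0.47. Cdk9, the kinase subunit, measured 59.9 and 68.2 FPKM with TGF-β and 153 and 206 FPKM with MetR (1.46 ± 0.14, adjusted p = 0.000252), and both MetR libraries exceeded the controls at 52.0 and 53.2 FPKM. Its cyclin, Ccnt1, was low at 1.70 and 1.22 FPKM against 2.86 and 1.46 FPKM and did not pass the test (0.33, adjusted p = 0.248), but did without the second MetR library (0.66). Hexim1, which holds P-TEFb inactive, rose by 0.91 ± 0.13, and the elongation factor Ell by 1.12 ± 0.12, while Ell2 fell by 0.73. In the NELF, DSIF and PAF complexes 9 of 24 rose, a share near the background, and 2 fell. After median ratio rescaling 4 of these rose and 6 fell. Of 39 genes for RNA polymerase II and Mediator, 20 rose and 4 fell. Med18, a Mediator subunit, rose from 8.30 and 8.60 FPKM to 25.3 and 33.4 FPKM, and Polr2a, the catalytic subunit of the polymerase, fell from 42.7 and 32.2 FPKM to 25.2 and 18.9 FPKM.

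Hoxc genes encode homeodomain factors of positional identity, and 5 of the 6 described fell. Hoxc8 measured 4.32 and 5.01 FPKM with TGF-β and 0.417 and 0.614 FPKM with MetR (-1.90 ± 0.19, adjusted p = 0.000272), below the controls at 1.12 and 1.34 FPKM. Hoxc6 fell from 12.5 and 12.7 FPKM to 4.81 and 5.41 FPKM, Hoxc9 from 8.09 and 11.3 FPKM to 4.12 and 3.88 FPKM, and Hoxc4 and Hoxc5 by 1.04 and 0.95 on the log2 scale. Hoxc5 did not pass the test without the first TGF-β library (-0.58) or the second MetR library (-0.88). Hoxc10 rose slightly, from 13.7 and 14.6 FPKM to 16.4 and 19.9 FPKM (0.34, adjusted p = 0.048), and after median ratio rescaling it did not pass the test (0.14, adjusted p = 0.326). Its call was also lost without any single library other than the first MetR library (0.21 to 0.38). Of 16 genes in the other Hox clusters, 5 rose and 3 fell, with a median of 0.13 as deposited and -0.06 after median ratio rescaling. Hox genes lie close together and the strand setting of the counting is not given in the sources used here, so reads of overlapping transcripts cannot be separated.

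Downstream of TGF-β, Smad and feedback genes were not lowered together. Of 18, 8 rose and 2 fell. Smad3, the receptor-activated factor, measured 20.3 and 18.2 FPKM with TGF-β and 33.6 and 34.8 FPKM with MetR (0.80 ± 0.11), against 43.8 and 45.2 FPKM in the controls. Ccn2, connective tissue growth factor, measured 3058 and 3342 FPKM against 3391 and 3400 FPKM and did not pass the test (0.09, adjusted p = 0.539), and its sign turned to -0.13 after median ratio rescaling. Bmpr1b, a BMP receptor, went from 0.942 and 1.06 FPKM to 19.5 and 17.7 FPKM (3.29 ± 0.13). Wnt genes fell in 8 of 24 and rose in 4. Wnt4 measured 19.3 and 20.1 FPKM with TGF-β and 3.38 and 1.39 FPKM with MetR, Wnt9a fell by 2.26 on the log2 scale, and Axin2, a target and inhibitor of the canonical pathway, from 13.3 and 10.5 FPKM to 3.38 and 2.25 FPKM.

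Secreted signals and matrix enzymes rose and fell by gene. Of 33 chemokines, interleukins and their receptors, 18 rose and 6 fell, with a median of 0.49. Il6 measured 1.24 and 1.05 FPKM with TGF-β and 14.4 and 21.3 FPKM with MetR (3.11 ± 0.21), and Lif, of the same family, rose from 10.3 and 7.97 FPKM to 35.6 and 47.9 FPKM. Il11, of that family as well and a TGF-β target in fibroblasts, fell from 2.62 and 3.64 FPKM to 0.0879 and 0.169 FPKM. Osmr, a receptor chain of that family, rose by 1.70 ± 0.12. Among 27 matrix proteases and inhibitors, 8 rose and 10 fell. Mmp2, a gelatinase, measured 188 and 177 FPKM with TGF-β and 695 and 590 FPKM with MetR (1.81 ± 0.11). Mmp19 rose by 2.24 ± 0.14 and Mmp3, stromelysin, by 2.80 ± 0.28, while Adamts12 and Adam19 fell by 1.88 and 1.65 on the log2 scale. Igfbp4, a carrier that blocks IGF, rose from 4.22 and 5.38 FPKM to 33.3 and 35.5 FPKM.

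The 2 MetR libraries disagreed on the sign of some lists. The median of 18 collagens was -0.34, but 0.20 with the first MetR library alone and -0.57 with the second alone, and 17 of the 18 were higher in the first. Proteoglycans turned as well, from 0.48 to -0.16, and in the other direction translation factors turned from -0.17 to 0.22 and replication genes from -0.09 to 0.22. Fibroblast markers (0.33 and -0.63), matricellular proteins (0.06 and -0.53) and the PDGF, FGF and IGF axis (0.22 and -0.17) also changed sign. Collagen hydroxylases and lysyl oxidases (-0.56 and -1.06) and matrix proteases (-0.16 and -0.39) were below 0 with either library. Over all described genes, 40.2% were higher in the first MetR library. The lists of Hoxc genes and mitosis, in contrast, had medians of -1.05 and -0.93 with the first library alone and -1.05 and -0.92 with the second alone.

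**Figure D4:**
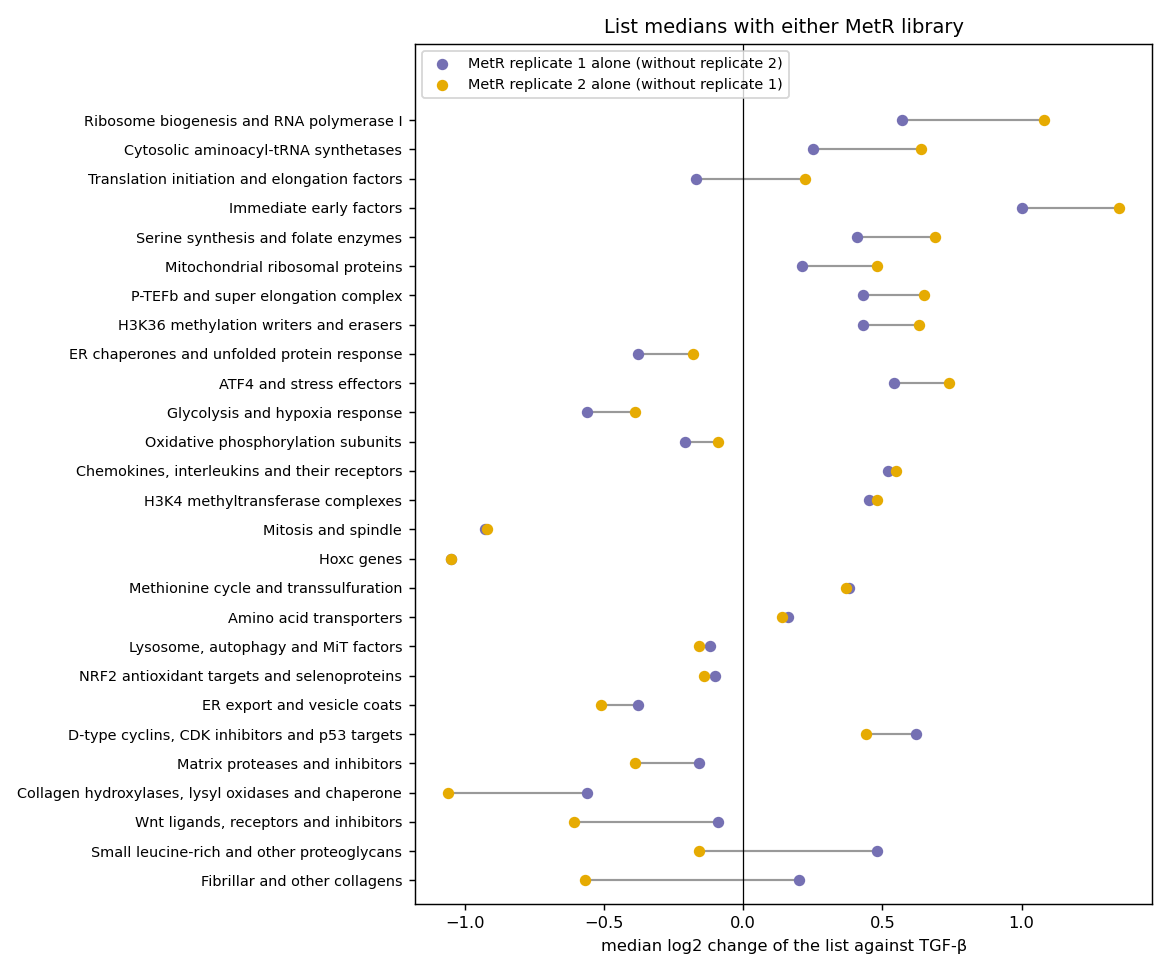
Median log2 change against TGF-β (horizontal axis) of 27 lists, with only the first MetR library (purple) or only the second (yellow), ordered by the gap. Collagens (0.20 and -0.57), proteoglycans (0.48 and -0.16) and translation factors (-0.17 and 0.22) changed sign, while Hoxc genes and mitosis barely moved.

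Other genes changed as much. Slc47a1, an exporter of organic cations, went from 0.536 and 0.686 FPKM to 12.2 and 16.1 FPKM, and Fgfbp3, a carrier of FGFs, from 2.18 and 2.66 FPKM to 23.1 and 36 FPKM. Ptprn, a protein of secretory granules, rose by 3.01 ± 0.11, and Crcp, a subunit of RNA polymerase III, by 3.0 ± 0.16. Rrad, a small GTPase that restrains calcium channels, rose by 3.81 ± 0.16. Among the falls, Lgals1, the lectin galectin-1, measured 3351 and 4286 FPKM with TGF-β and 587 and 412.5 FPKM with MetR (-2.94 ± 0.19). Fntb, a subunit of farnesyltransferase, fell from 120 and 136 FPKM to 14.0 and 15.1 FPKM (-3.05 ± 0.10), and Tgfb2, a ligand of the pathway, from 121 and 114 FPKM to 24.8 and 11.6 FPKM. Each of these genes had both MetR libraries outside the range of the TGF-β pair, as had 47.4% of described genes above it and 26.6% below it.

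Reads at some microRNA hairpins changed too, although libraries of polyadenylated RNA show the precursor or its host transcript and not the mature microRNA. Of 58 hairpin loci described, 13 were raised, 10 lowered and 35 not called. Both called shares were below those of all described genes (36.5% raised and 19.6% lowered). The arms of the 2 hairpins with the largest falls are shown, since Mir143 and Mir145 are known as smooth muscle microRNAs, along with the main arms of Mir221 and Mir222, chosen after their values were seen for their shared seed. Seeds (bases 2 to 8) are in capitals, and sequences are from RefSeq, build GRCr8.
rno-miR-143-3p, chr18:57371373-57371394, minus strand: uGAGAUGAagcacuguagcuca
rno-miR-145-5p, chr18:57370033-57370055, minus strand: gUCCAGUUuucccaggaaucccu
rno-miR-221-3p, chrX:6023246-6023268, plus strand: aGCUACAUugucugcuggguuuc
rno-miR-222-3p, chrX:6022682-6022702, plus strand: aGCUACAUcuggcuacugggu
Mir143 had 13 and 10 recovered reads with TGF-β and 0 and 0 with MetR (adjusted p = 0.00016), and Mir145 had 14 and 26 against 3 and 0 (adjusted p = 0.00102). Both are few reads, so no fold is given. Mir221 had 6 and 2 reads against 18 and 33, and Mir222 0 and 1 against 9 and 4 (adjusted p = 0.0172 and 0.00608). The call of Mir221 was lost without the second TGF-β library (1.56) or the second MetR library (1.59). The 2 arms shown share the seed GCUACAU. Mir1893 had 43 and 26 reads with TGF-β and 315 and 453 with MetR, a rise of 3.24 ± 0.37.

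Most markers of other kidney cell types were under the level set for description, with the keratin Krt8 as an exception. Of 15 tubule epithelial markers, only Krt8 and Cdh16 were described, Epcam and Umod were listed at 0 in all 4 libraries, and the summed level was 196 and 227 FPKM with TGF-β and 234 and 257 FPKM with MetR, nearly all of it Krt8, which passed the test only without the second TGF-β library (0.31) or after quantile normalization (0.42). Cdh16, a kidney cadherin, rose from 0.106 and 0.0209 FPKM to 2.53 and 2.76 FPKM, and the part of such cells in the results above was not tested. Endothelial markers summed to 23.0 and 25.8 FPKM against 18.1 and 9.54 FPKM, with Kdr listed at 0, and leukocyte markers to 2.72 and 2.54 FPKM against 5.06 and 4.26 FPKM. Of 10 fibroblast markers described, 3 rose, 3 fell and 4 did not pass the test. Their list summed to 14300 and 14500 FPKM with TGF-β and to 12300 and 7880 FPKM with MetR, a sum that abundant genes dominate. Vim, vimentin, fell from 5256 and 6204 FPKM to 2861 and 2707 FPKM. Thy1, another fibroblast marker, was listed at 0.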

How the data were processed

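RNA of the 8 RNA-seq libraries was deposited by the authors as 1 table of FPKM per gene symbol. Per the submitters' processing notes, the tools include Trim Galore, Bowtie2 2.3.5.1, featureCounts and deepTools and the build is rn6; which of them made the FPKM is not given in the sources used here. Libraries were assigned by their labels. FPKM values are whole multiples of 1 read, and reads recovered from these steps were whole (tolerance 0.02) for 100.0% of 19435 genes above 0. The test was limma 3.58.1 in R 4.3.3 on log2(FPKM + 1), with a trended prior, 1 coefficient per group and all 4 groups of 2 libraries (the fourth given TGF-β and siHoxc8) sharing 1 estimate of the spread. The fit took genes that reached 1 FPKM in 2 or more of the 8 libraries, and p-values were adjusted by Benjamini-Hochberg (threshold 0.05). Changes are on the log2(FPKM + 1) scale, which understates low genes. The code was checked on simulated data. Just inside the rule for described genes, the second highest of the 4 values was 1.0008 FPKM (AABR07062344.2), and just outside it 0.9977 FPKM (Ccdc163).

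Named genes are Hoxc8, Smad3, Cdk9, Ccnt1, Acta2 and Mat2a, the 20 largest rises and falls among called genes of at least 5 FPKM whose groups do not overlap, the 10 most abundant genes of each group and up to 6 called members of each list; others were chosen after their values were seen, and not all are printed. The members and lists were chosen with earlier results of these data known. Gene lists are described by counts and medians, without a set test. The histone libraries of the series are not analysed here. Alternatives covered the libraries in the fit, the block, pseudocount, filters, scaling, library weights, limma-voom on the recovered reads and each library left out.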

Additional observations from a re-analysis of the deposited data

How the results depend on the processing

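The counts of raised and lowered genes (4243 and 2283) stayed within 1.5 times under every alternative run. Raised genes numbered 2985 with only the 4 libraries compared, 3064 with library weights, 3136 after median ratio rescaling and 4246 by limma-voom on the recovered reads. Lowered genes numbered 1604, 1609, 3182 and 2263 in the same order. Leaving out each library in turn gave 3440 to 4730 raised and 1763 to 2481 lowered. Of the raised genes, 73.9% kept their call under median ratio rescaling and 69.7% with only the 4 libraries compared. Of the lowered genes, 100.0% and 69.8% kept theirs in the same order.

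No label says that the replicate numbers pair the libraries, and with 2 pairs the deviations of same-numbered libraries correlated at 0.202 between the groups compared and at -0.02 to 0.024 in the other pairs of groups. With a replicate block, 4255 genes were raised and 2284 lowered, and among the genes named the call of Hoxc10 was lost (0.34, adjusted p = 0.0611).

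Reversals of sign were in genes that did not pass the test. Median ratio rescaling gave -0.13 for Ccn2, -0.05 for Cdkn1a, -0.09 for Hif1a and -0.01 for Krt8. Quantile normalization gave -0.06 for Hif1a, and removal of the length trend, chosen after seeing the data, gave -0.11 for Ccn2 and -0.12 for Hif1a. Leaving out 1 library gave -0.07 to 0.50 for Ahcy and -0.0 to 0.24 for Hif1a. Quantile normalization moved Ccn2 to 0.68 and Cdkn1a to 0.43, past the threshold. With library weights the calls of Fos, Hoxc5, Hoxc9, Ier3, Phgdh, Mir221 and Mir222 were lost, and with only the 4 libraries those of Ier3, Phgdh, Setd7, Shmt1 and Slc6a6; Hoxc10 lost its call under both. With no filter on low values the calls of Eef1a1 (-0.93, adjusted p = 0.0558), Slc6a6, Hoxc10 and Mir221 were lost, and with a pseudocount of 0.1 that of Mir221. The cause was not tested.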
